A study of Mus musculus with 6 samples.

Results

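The circadian clock genes examined here were Arntl (also written Bmal1), Clock and Npas2 of the positive arm, Per1, Per2, Per3, Cry1 and Cry2 of the negative arm, and the clock outputs Dbp and Usp2. They were chosen by name, and all 24 probe sets that carry 1 of these symbols alone were used, for 10 of the 18193 genes on the array. Each gene was represented by its brightest probe set on average over the arrays (in log2 signal), and the other probe sets are given beside it. The samples were 3 fat depots, epididymal, subcutaneous and brown, taken from males aged 2 months that either lacked Kdm4b in the whole animal (KO) or were wild type (WT). Kdm4b is an enzyme that takes methyl groups off lysines of histone H3. All mice were housed at room temperature on chow and fasted for 6 hours before the tissue was taken. Each depot and genotype had 1 Affymetrix array, 6 in all, so no depot had a replicate and precision is limited by how few arrays there were. The labels give neither the number of mice per sample, nor whether the depots share mice, nor the exons removed, nor the time of day of sampling. A difference of genotype and a difference in time of day between the KO and WT samples therefore cannot be told apart here.

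The circadian clock is a feedback loop of transcription. Arntl pairs with Clock or with its relative Npas2 and binds E-box sequences, which switches on the Per and Cry genes, and the Per and Cry proteins then return to the nucleus and hold Arntl and Clock in check. Dbp, a transcription factor of the PAR bZIP family, is switched on by the same E-boxes and binds D-boxes, while Nr1d1, Nr1d2 and the Ror factors act on Arntl through ROR elements. Usp2 is a deubiquitinase with a strong daily rhythm in many tissues. In mouse tissues Dbp and the Per genes peak at nearly the opposite phase to Arntl and Npas2, Cry1 peaks later than the Per genes, and Clock itself cycles little. Fat has such a clock of its own, which follows both the brain's clock and the time of feeding.

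The promoters of 4 negative arm genes are shown because Per1 and Per3 had lower signals in KO fat in each depot and both Cry genes in epididymal and brown fat, as given below. They come from RefSeq windows on GRCm38.p6 that reach from 250 bases before to 50 bases after a gene's start, and 9 of the 10 genes had at least 1 window, with Per2 the exception. The motifs searched, on both strands, were the E-box CACGTG, its variant CACGTT, the D-boxes TTATGTAA and TTACGTAA, the ROR element cores TAGGTCA and TGGGTCA, and the CRE TGACGTCA, and no motif found in a member overlapped another. Capitals mark the motifs, 5′ to 3′ on the gene's own strand, and AACGTG is the variant E-box read on the other strand.
Per3, chr4:151044786-151044900, minus strand: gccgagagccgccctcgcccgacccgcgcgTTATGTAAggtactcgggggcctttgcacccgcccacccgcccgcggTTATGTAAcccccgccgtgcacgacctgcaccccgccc
Per1, chr11:69098753-69098818, plus strand: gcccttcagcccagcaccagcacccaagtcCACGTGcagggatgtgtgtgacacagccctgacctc
Cry1, chr10:85185079-85185163, minus strand: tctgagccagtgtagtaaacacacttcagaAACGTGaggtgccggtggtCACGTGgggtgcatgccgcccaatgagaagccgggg
Cry2, chr2:92434200-92434265, minus strand: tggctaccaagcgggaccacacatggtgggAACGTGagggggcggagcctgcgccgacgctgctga

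Per3 held 2 copies of the D-box, which begin at positions -205 and -158 counted from its start. A D-box was present in 1.06% of the 32851 windows in the table. Per1 held the E-box at -166 from the first of its starts, and Cry1 held an E-box at -60 and a variant E-box at -79. The E-box was present in 7.15% of all windows and the variant, which Cry2 also held, in 4.68%. Arntl held the ROR element core in its window that starts later, at 31 bases past the start, and either ROR core was present in 6.45% of all windows. The windows of Clock, Npas2, Dbp and Usp2 held none of these letters. A match is a description of the sequence and not of binding, and an element outside the window is not seen.

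The signal of Kdm4b, measured by 1 probe set, was 188.4 in KO and 226.7 in WT epididymal fat, 156.7 and 272.1 in subcutaneous fat, and 95.2 and 134.6 in brown fat, lower in KO in 3 of 3 depots. The labels do not say whether that probe set lies in the removed exons. Ucp1, the uncoupling protein of brown adipocytes, had signals of 40618.7 in KO and 44367.1 in WT brown fat and at most 6648.8 in white fat. Adipocyte transcripts, 4 genes, were above the floor on all 6 arrays and summed to between 85027.2 and 116782.8. Skeletal muscle transcripts, 10 genes in all, summed to 733.3 in KO and 19284.6 in WT brown fat, to 2257.8 and 5436.9 in epididymal fat, and to 67892.8 and 57192.7 in subcutaneous fat. Within subcutaneous fat, Myh1 had 3577.4 in KO and 177.5 in WT, Myh2 782.4 and 54.9, and Mb 1637.2 and 81.1. Only Myh4 of the 10 genes was lower in KO there, at 8317.6 in KO and 11135.8 in WT. Between 12650 and 13601 genes lay above a signal floor of 63.2, the 40th percentile of all probe sets, and the highest number was on the KO subcutaneous array. Within a depot the only error available was the disagreement between probe sets of the same gene, with a pooled SD on the log2 scale of 0.31 (epididymal), 0.32 (subcutaneous) and 0.32 (brown), and this does not cover the spread between mice. In bulk tissue, fewer cells of a type and less RNA per cell cannot be told apart.

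On the brightest probe sets the positive arm differed little between genotypes, and Arntl and Clock were slightly higher in KO in each depot. Each has a probe set that ran the other way in at least 1 depot, as given below. Arntl, the partner that every active complex of the loop contains, had signals of 226.7 in KO and 213.3 in WT epididymal fat, 374.1 and 300.1 in subcutaneous fat, and 211.5 and 185.4 in brown fat. The log2 differences, KO minus WT, were 0.09, 0.32 and 0.19 in these depots. Both subcutaneous arrays stood above the other 4, and within the order of the arrays only the step down to the next, the KO epididymal array, was larger than the probe set SD, at 0.40. Clock, the histone acetyltransferase that binds DNA with Arntl, had signals of 1521.0 in KO and 1299.2 in WT epididymal fat, 1082.5 and 975.0 in subcutaneous fat, and 1628.2 and 1552.3 in brown fat, differences of 0.23, 0.15 and 0.07. Brown fat was highest and subcutaneous fat lowest, with no step between neighbouring arrays above the probe set SD. Npas2, which can stand in for Clock, was at the edge of detection: its signals were 44.6 in KO and 75.5 in WT epididymal fat, 66.0 and 56.1 in subcutaneous fat, and 30.6 and 38.9 in brown fat. Only the WT epididymal and KO subcutaneous arrays were above the floor, so Npas2 gives no usable difference.

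On their brightest probe sets, the Per genes of the negative arm were lower in KO in most depots. The largest decrease was for Per3 in epididymal and subcutaneous fat and for Per1 in brown fat. With the mean of a gene's probe sets this order turned round in 2 depots. Per3 was then at -0.095 and Per1 at -0.208 in subcutaneous fat, and at -0.313 and -0.227 in brown fat. Per3, the member of the Per family that the core loop can do without, had signals of 1074.2 in KO and 2064.2 in WT epididymal fat, 1076.3 and 1354.1 in subcutaneous fat, and 795.2 and 912.3 in brown fat. The log2 differences were -0.94, -0.33 and -0.20, and the WT epididymal array stood above all others. The steps from it to the WT subcutaneous array, 0.61, and from there to the KO subcutaneous array, 0.33, were larger than the probe set SD. Per1, which also responds quickly to hormones and other signals, had signals of 1214.5 in KO and 1508.9 in WT epididymal fat, 984.6 and 1137.1 in subcutaneous fat, and 731.4 and 855.9 in brown fat. The KO array was the lower of the pair in 3 of 3 depots, by differences of -0.31, -0.21 and -0.23, closer to each other than those of Per3. Per2, the core repressor, had signals of 674.1 in KO and 737.6 in WT epididymal fat, 659.8 and 575.6 in subcutaneous fat, and 651.6 and 734.8 in brown fat. Its 6 signals lay close together, no step between neighbours exceeded the probe set SD, and the differences of -0.13, 0.20 and -0.17 had no common sign.

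The Cry genes, whose proteins are the strongest repressors of the loop, split by depot. Cry1 had signals of 378.8 in KO and 521.8 in WT epididymal fat, 524.1 and 254.4 in subcutaneous fat, and 371.8 and 472.3 in brown fat. The KO subcutaneous array was the highest and the WT subcutaneous array the lowest of the 6, so that the difference was 1.04 there, against -0.46 in epididymal and -0.34 in brown fat. Cry1 rests on 1 probe set, of a kind whose probes match several transcripts of the same gene. The subcutaneous arrays also differed in transcripts of seminal vesicle, whose 3 genes summed to 1450.7 in KO and 7716.9 in WT. They differed too in the skeletal muscle genes Myh1, Myh2 and Mb, higher in KO as given above. The part of either tissue in the Cry1 values was not tested. Cry2, the other mammalian Cry gene, had signals of 749.1 in KO and 910.8 in WT epididymal fat, 718.4 and 706.7 in subcutaneous fat, and 367.9 and 478.7 in brown fat. Its differences were -0.28, 0.02 and -0.38, and both brown fat arrays were below the 4 arrays of white fat.

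The brightest probe sets of both outputs were lower in KO in each depot, by the most in epididymal fat. Dbp, a direct target of Arntl and Clock that is often used to read the state of the loop, had signals of 2619.5 in KO and 4524.6 in WT epididymal fat, 3700.4 and 4396.5 in subcutaneous fat, and 2208.0 and 2969.6 in brown fat. These are differences of -0.79, -0.25 and -0.43, and the WT array was the higher of the pair in 3 of 3 depots. The other probe set of Dbp ran the same way, with 1407.9 in KO and 2574.9 in WT epididymal fat, 2086.8 and 2606.5 in subcutaneous fat, and 1145.5 and 1741.9 in brown fat. Usp2 had signals of 367.0 in KO and 835.1 in WT epididymal fat, 448.4 and 497.3 in subcutaneous fat, and 1508.4 and 2748.7 in brown fat. Its differences were -1.19, -0.15 and -0.87, and in epididymal fat it was 2.28-fold lower in KO. The other probe set of Usp2 had 483.5 in KO and 748.0 in WT epididymal fat, 825.0 and 1228.7 in brown fat, and, in the opposite direction, 621.4 and 399.2 in subcutaneous fat. The summed skeletal muscle signal was also lower in KO epididymal and brown fat, and its part in the Usp2 values was not tested.

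**Figure D1:**
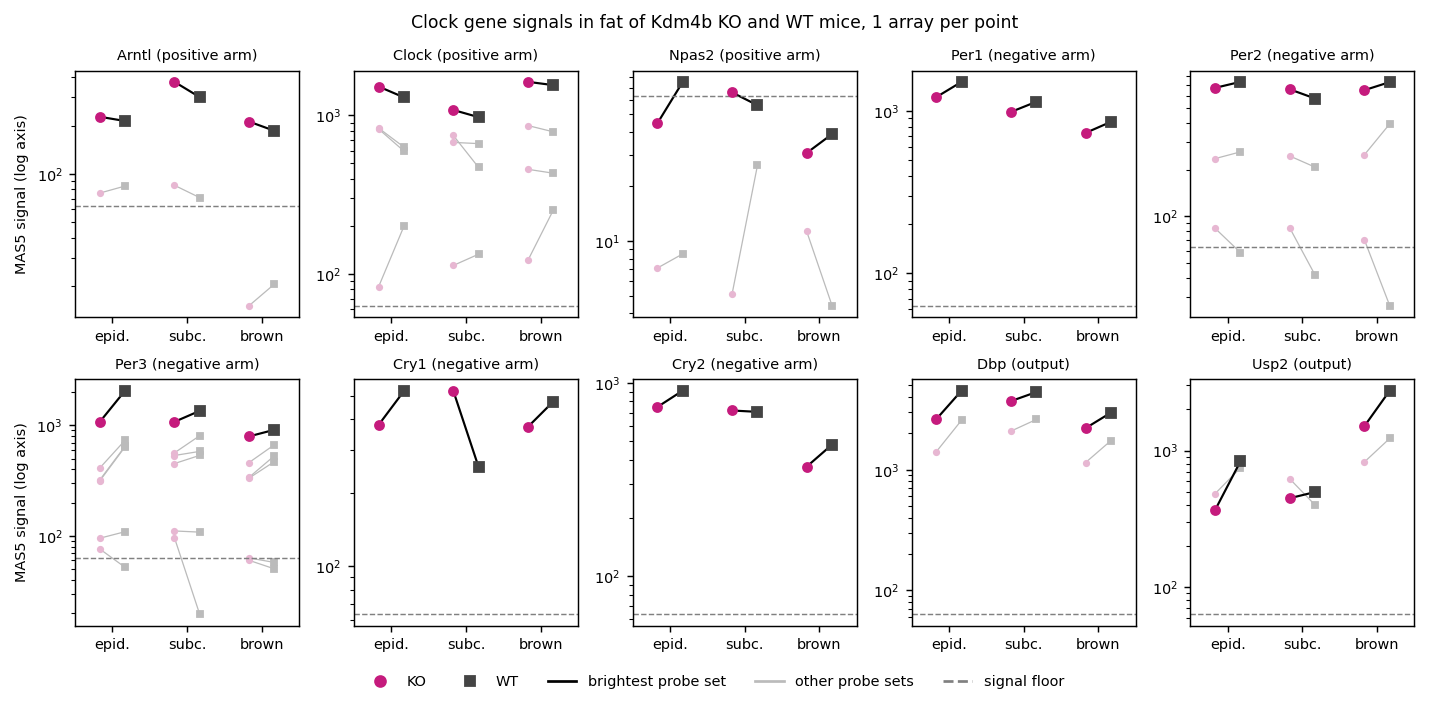
Signals of the 10 clock genes on a log axis, with KO (circles) left of WT (squares) in epididymal, subcutaneous and brown fat, 1 array per point. Dark lines join the brightest probe set of each gene, pale lines the others, and the dashed line is the floor of 63.2. Among the dark lines, Per1, Per3, Dbp and Usp2 slope up toward WT in each depot, Arntl and Clock slightly down, and Cry1 turns round in subcutaneous fat.

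Set beside all genes measured in a depot, the members leaned to lower signals in KO in epididymal and brown fat and not in subcutaneous fat. In epididymal fat 8 of 10 members, Npas2 near the floor included, were lower in KO, against 53.4% of all genes, with a median difference of -0.30 against -0.02 for all genes. In brown fat 7 of the 9 members measured were lower, against 53.7%, with a median of -0.23 against -0.03, and in subcutaneous fat 4 of 10 were lower, against 45.4%, with a median of 0.04 for the members and 0.04 for all genes. In epididymal fat 5 members, Per1, Per3, Cry1, Dbp and Usp2, were lower in KO by more than the SD between probe sets, as were 19.3% of all measured genes, and 0 were higher by as much, as were 14.5%. In brown fat 4 members, Cry1, Cry2, Dbp and Usp2, were lower by more than that SD, against 20.1% of all genes, and 0 were higher, against 13.6%. In subcutaneous fat only Per3 was lower and only Cry1 higher by more than the SD, against 12.8% and 19.4% of all genes.

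A 2-fold difference was rare among the members. Usp2 was the 1 member at least 2-fold lower in KO epididymal fat, where 1.44% of all genes were, and 0 were 2-fold higher, against 0.883%. Cry1 was the 1 member at least 2-fold higher in KO subcutaneous fat, at 2.06-fold, where 2.21% of all genes were, and 0 were 2-fold lower, against 0.75%. In brown fat 0 members passed 2-fold in either direction, against 1.11% of all genes higher and 2.42% lower in KO. Neither the Usp2 nor the Cry1 difference has a replicate behind it.

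Over the depots, 4 of the 9 members measured in each of them, Per1, Per3, Dbp and Usp2, were lower in KO in all 3 depots, against 17.2% of all 12137 genes measured in all 3. Arntl and Clock, 2 of 9, were higher in KO in all 3 depots, against 16.2% of all genes. With 3 depots an exact two-sided test of a single gene cannot give a p below 0.25. An alternative scaling centred each array on the median log2 signal of its probe sets above the floor. Per1 and Usp2 were then no longer lower in subcutaneous fat. This centring moved the median difference of all genes there to 0.23, against 0.04 on the deposited scale. Under it 2 members, Per3 and Dbp, remained lower in all 3 depots, and the share of all genes was not counted.

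limma, with depot and genotype as terms, called 0 members and 0% of 13232 genes for genotype after Benjamini-Hochberg adjustment over all genes. Its p-values measure how alike the 3 depots are, not the spread between mice. The largest estimates among the members were -0.73 ± 0.22 (SE) for Usp2, with an adjusted p of 0.552, -0.49 ± 0.15 for Dbp, with 0.555, and -0.49 ± 0.18 for Per3, with 0.59, by limma, each lower in KO in 3 of 3 depots. The Usp2 estimate was -0.46 with the mean of its probe sets, -0.19 from its dimmer probe set alone, -0.51 without epididymal and -1.03 without subcutaneous fat. Per3 was at -0.27 without epididymal fat, and Dbp lay between -0.61 and -0.34 over all alternatives. These 3 of 9 members had unadjusted limma p-values of 0.0209, 0.0214 and 0.0419, below 0.05, as did 4.53% of all genes in the same direction. Higher in KO at that level were 0 members, against 3.8% of all genes. Arntl was estimated at 0.20 ± 0.12, with a limma adjusted p of 0.662, and Clock at 0.15 ± 0.11, with 0.717, both higher in KO in 3 of 3 depots. Per1 was at -0.25 ± 0.11, with a limma adjusted p of 0.63, lower in 3 of 3 depots. Per2, Cry1 and Cry2, whose depots did not share a sign, had estimates of -0.04 ± 0.13, 0.08 ± 0.32 and -0.21 ± 0.13 and limma adjusted p-values of 0.954, 0.959 and 0.672.

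Whether brown fat differed from white fat in its genotype difference was tested with an interaction term. limma called 0 members and 0% of all genes, and 0 members had an unadjusted p under 0.05. The smallest adjusted p among the members was 0.798 by limma, for Per3, at 0.44 ± 0.35 (SE). For Cry1 the term was -0.64 ± 0.69, with a limma adjusted p of 0.847, since the 2 white depots that it averages had opposite signs.

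The 3 arms of the loop were then compared within each array, as the mean over the members of an arm of log2 signal minus that gene's mean over the 6 arrays. KO minus WT, the output arm was at -0.99 in the epididymal, -0.20 in the subcutaneous and -0.65 in the brown depot, and the positive arm at 0.02, 0.18 and 0.09. Output minus positive arm was -0.75 in KO and 0.26 in WT epididymal fat, -0.45 and -0.08 in subcutaneous fat, and 0.15 and 0.88 in brown fat. The KO value was thus below the WT value in 3 of 3 depots, by -1.01, -0.38 and -0.73. Brown fat had the highest value within each genotype through Usp2: with Dbp as the output alone, the values were -0.34 in KO and 0.46 in WT epididymal fat, 0.06 and 0.48 in subcutaneous fat, and -0.59 and -0.08 in brown fat, which was then the lowest. Negative minus positive arm was 0.04 in KO and 0.49 in WT epididymal fat, -0.04 and -0.01 in subcutaneous fat, and -0.41 and -0.06 in brown fat, KO minus WT differences of -0.45, -0.03 and -0.35. The negative arm was thus also lower against the positive arm in KO epididymal and brown fat and almost level in subcutaneous fat. That last value rests on Cry1: without it the KO minus WT difference was -0.26 in subcutaneous fat, against -0.44 in epididymal and -0.33 in brown fat. Npas2, at the floor on 4 of the 6 arrays, pulls the positive arm down in epididymal fat: without it the arm's KO minus WT difference was 0.16 there, and output minus positive arm was at -1.15, -0.43 and -0.78. Without the probe sets that can bind several transcripts, where Arntl, Dbp and Usp2 are each read by their other probe set and Cry1 drops out, the KO minus WT difference of output minus positive arm was -0.69 in epididymal and 0.002 in subcutaneous fat.

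**Figure D2:**
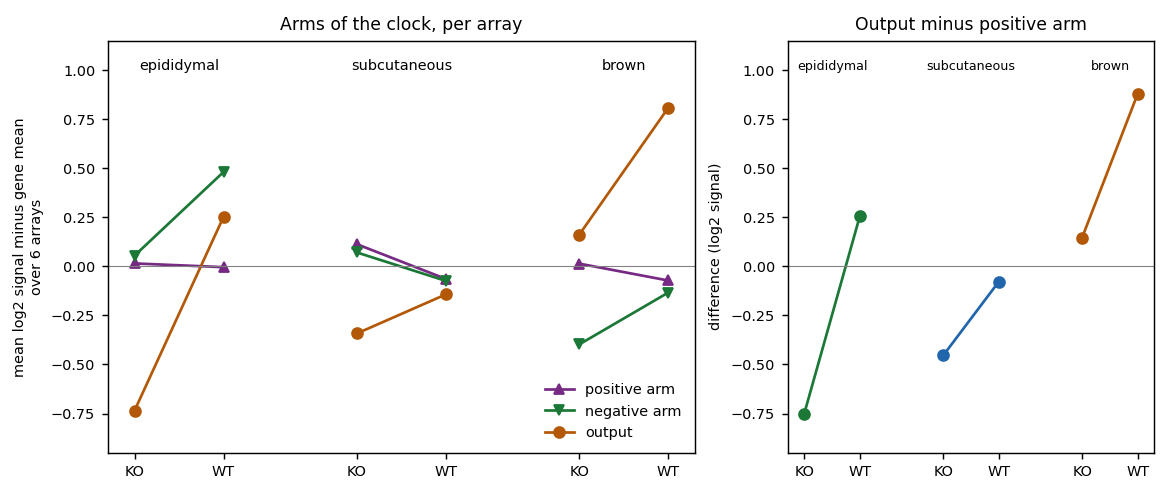
Left, the mean log2 signal of the positive arm, the negative arm and the outputs on each of the 6 arrays, each gene centred on its mean over the arrays, with KO left of WT. Right, output minus positive arm, which lay at -0.75, -0.45 and 0.15 in KO and at 0.26, -0.08 and 0.88 in WT epididymal, subcutaneous and brown fat.

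The probe sets of a gene mostly pointed one way, with exceptions that matter for Clock and Usp2. Of the 6 probe sets of Per3, those above the floor on both arrays were lower in KO in 5 of 5 cases in epididymal fat, 4 of 5 in subcutaneous fat and 4 of 4 in brown fat, with differences of -1.03 to -0.20, -0.52 to 0.04 and -0.65 to -0.20. Both probe sets of Dbp were lower in each depot. For Per2, 2 of 3 probe sets exceeded the floor in KO and WT of each depot, with differences of -0.14 to -0.13 in epididymal, 0.20 to 0.24 in subcutaneous and -0.66 to -0.17 in brown fat. On either of these 2 its depots ran in different directions. The remaining probe set of Per2 was above the floor only on the KO arrays and was higher in KO in each depot. It had 83.5 in KO and 58.2 in WT epididymal fat, 84.0 and 41.6 in subcutaneous fat, and 70.4 and 26.4 in brown fat. Of the 4 probe sets of Clock, 3 were higher and 1 was lower in KO in each depot. The dissenting probe set of Clock had signals of 83.1 in KO and 200.3 in WT epididymal fat, 113.3 and 133.5 in subcutaneous fat, and 121.9 and 252.8 in brown fat, and the mean over its probe sets was -0.04, 0.15 and -0.19. For Arntl the dimmer probe set gave -0.15 in epididymal and 0.26 in subcutaneous fat and was under the floor in brown fat. When a gene was read by the mean of its probe sets, 0 members were higher in KO in all 3 depots, and Per1, Per3 and Dbp, 3 members, were lower in all 3. The shares of all genes under that rule were not counted.

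**Figure D3:**
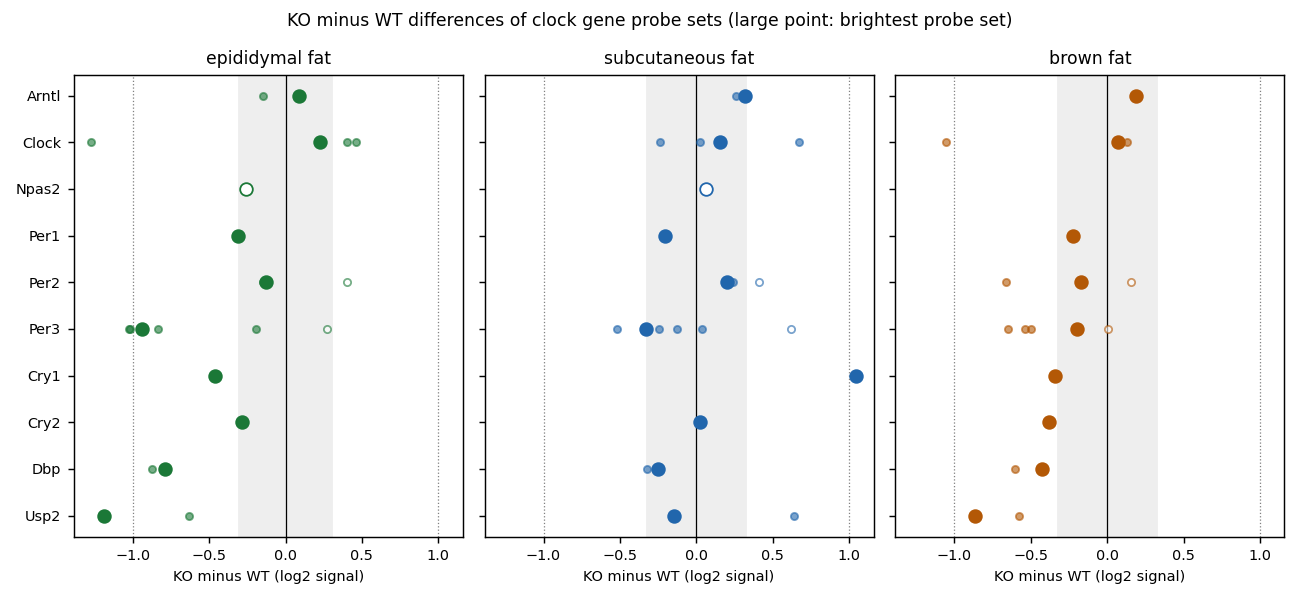
KO minus WT difference in log2 signal of each clock gene probe set, by depot, with the brightest probe set large. Open points had 1 array at or under the floor, the grey band is the SD between probe sets of a gene (0.31 to 0.32) and dotted lines mark 2-fold. Per3 and Dbp keep to the left of 0 but for the subcutaneous probe set at 0.04 and the open points, and Clock has 1 probe set far to the left in epididymal and brown fat.

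By limma, more members were called between brown and white fat than between the genotypes. Here the KO and WT arrays of a depot stand in for replicates. These p-values measure how alike the depot differences are in KO and WT, not the spread between mice. Of 9 members tested, Usp2 and Clock, 2 members, rose in brown against white fat, and Arntl, Per1, Per3, Cry2 and Dbp, 5 members, fell, while limma called 21.5% of all genes higher and 31.2% lower. Among all calls, 40.9% were higher as deposited, 48.1% after quantile normalization and 58.2% after centring each array on its median above the floor. The median of all genes lay at -0.115, -0.011 and 0.152 under these scalings. Usp2 had a geometric mean signal of 2036.2 in brown and 511.3 in white fat, 3.98-fold higher (limma, 1.99 ± 0.24 SE, adjusted p = 0.0021), and both brown arrays were above all 4 white arrays. Cry2 had 419.7 in brown and 767.2 in white fat, a log2 difference of -0.87 ± 0.14 with a limma adjusted p of 0.00603, and both brown arrays were below all 4 white arrays. Per1 had 791.2 in brown and 1196.8 in white fat, at -0.60 ± 0.12 with a limma adjusted p of 0.0114, again without overlap. Per3 was at -0.66 ± 0.19, Dbp at -0.54 ± 0.16, Arntl at -0.46 ± 0.13 and Clock at 0.40 ± 0.12, with limma adjusted p-values of 0.0382, 0.0373, 0.0314 and 0.0405. The brown arrays overlapped the white ones for Dbp. For Arntl, Clock, Per1 and Per3 the log2 step between the nearest brown and white arrays was only 0.01, 0.03, 0.20 and 0.24, under the probe set SD. How many of all genes had no overlap between brown and white arrays was not counted. Per2, at 0.07 ± 0.14 with a limma adjusted p of 0.698, and Cry1, at 0.06 ± 0.34 with 0.902, had both brown arrays within the range of the white ones.

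Cell types differed between the depots too: the summed signal of 5 B cell genes was 1485.8 and 878.7 in KO and WT brown fat and 15162.7 to 31802.5 in white fat, and that of 4 brown adipocyte genes 125931.4 and 140045.0 in brown fat and 12113.1 to 17907.9 in white fat. Their part in the clock gene values was not tested.

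These calls were not equally firm. Cry2 passed under all 10 other settings and with each of the 6 arrays left out, and Usp2 under 9 settings and all 6, its exception being without the probe sets that can bind several transcripts (0.88, limma adjusted p = 0.0549). Per1 passed under 9 settings, but not when either brown array was left out. Arntl passed under 5 settings and Clock under 7, and neither passed with any 1 array left out. Per3 passed under 4 settings and Dbp under 6, and both lost the call without the WT epididymal, the KO subcutaneous, the KO brown or the WT brown array.

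Between the white depots 0 members were called, against 3.91% of all genes higher and 1.16% lower in subcutaneous than in epididymal fat. By unadjusted limma p under 0.05, 1 of 9 members was higher and 2 were lower, as were 1672 and 1187 of all 13232 genes. Arntl had a geometric mean signal of 335.1 in subcutaneous and 219.9 in epididymal fat, 0.61 ± 0.15 (SE) with a limma adjusted p of 0.0934. Clock had 1027.3 in subcutaneous and 1405.7 in epididymal fat, -0.45 ± 0.14 with 0.156 by limma, and Per1 had 1058.1 and 1353.7, -0.36 ± 0.14 with 0.228 by limma. On their brightest probe sets, Arntl was thus higher and its partner Clock lower in subcutaneous fat. The dimmer probe set of Arntl, near the floor, did not share this order. It had 75.9 in KO and 84.0 in WT epididymal fat, and 84.9 and 71.1 in subcutaneous fat. Of all limma calls between the white depots, 77.2% were higher in subcutaneous fat. This was 62.4% after quantile normalization and 83.1% after centring on the median above the floor.

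**Figure D4:**
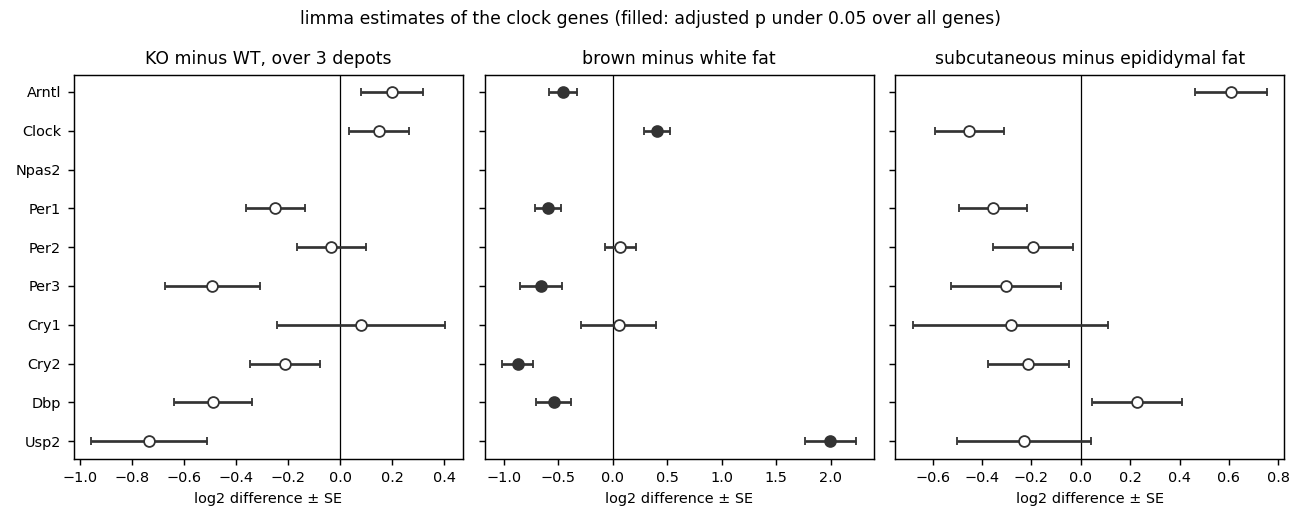
limma estimates of the log2 difference with SE for the 9 clock genes tested, for KO minus WT over the 3 depots, brown minus white fat and subcutaneous minus epididymal fat. Filled points had an adjusted p under 0.05 over all 13232 genes: 7 in the brown against white comparison and 0 in the others.

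Other genes of the clock pathway, a list of 22 of which 20 had a probe set of their own, also leaned to lower signals in KO in epididymal and brown fat and not in subcutaneous fat. In epididymal fat 5 of 18 measured were higher and 13 lower in KO, where 53.4% of all genes were lower. In brown fat 6 of 19 were higher and 13 lower, against 53.7% of all genes lower. In subcutaneous fat 14 of 20 were higher and 6 lower, against 45.4% of all genes lower. This lean was not tested. The medians were -0.20, -0.11 and 0.10 in epididymal, brown and subcutaneous fat, against -0.02, -0.03 and 0.04 for all genes. Nr1d1, the repressor of Arntl transcription, had signals of 631.1 in KO and 760.6 in WT epididymal fat, 641.0 and 524.2 in subcutaneous fat, and 286.1 and 360.2 in brown fat. Its relative Nr1d2 had 4494.8 in KO and 5405.2 in WT epididymal fat, 5920.2 and 5553.1 in subcutaneous fat, and 4968.4 and 5249.7 in brown fat. For both, KO was lower in epididymal and brown fat and higher in subcutaneous fat.

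Tef, a D-box activator of the same family as Dbp, had 2635.4 in KO and 3731.3 in WT epididymal fat, 3152.0 and 3137.8 in subcutaneous fat, and 3688.6 and 4157.1 in brown fat. It was thus lower in KO in epididymal and brown fat and level in subcutaneous fat. Only Arntl2, a relative of Arntl, passed 2-fold in a depot, with 74.5 in KO and 150.3 in WT brown fat, 2.02-fold lower in KO, near the floor. limma called 0 of 19 pathway genes for genotype, with a smallest adjusted p of 0.613. In brown against white fat limma called 5 of the 19 higher and 3 lower, where 21.5% and 31.2% of all genes were called. Nfil3, the repressor at D-boxes, was 5.31-fold higher and Nampt, the enzyme of the NAD salvage pathway, 3.79-fold higher, with limma adjusted p-values of 0.00208 and 0.000686, and Nr1d1 was at -0.98 ± 0.18 and Rora, an activator of Arntl, at -0.99 ± 0.14, with limma adjusted p-values of 0.00816 and 0.00346. Nfil3, Nampt and Rora were picked out after their values were seen.

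**Figure D5:**
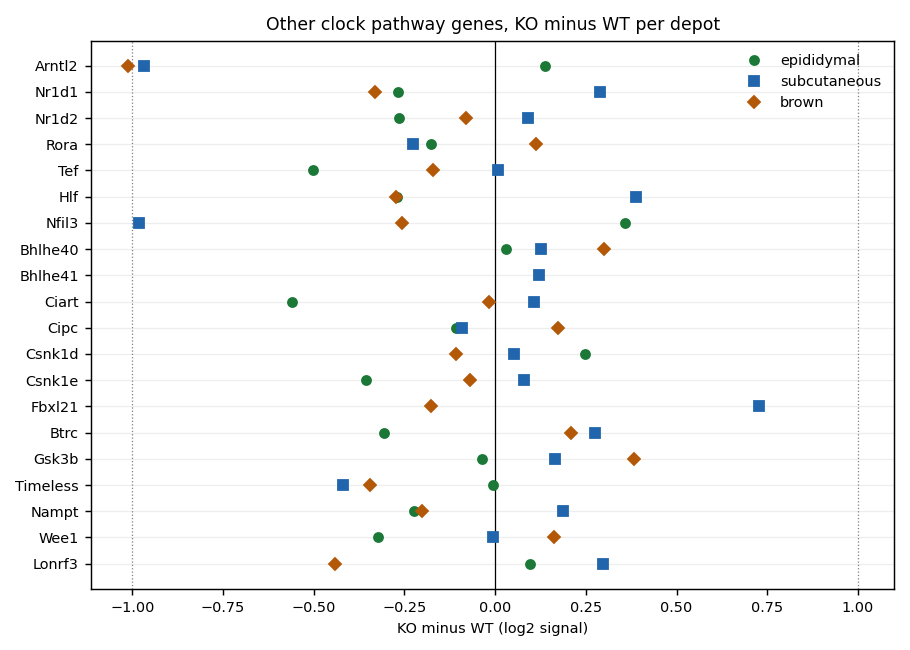
KO minus WT difference in log2 signal of the other clock pathway genes in epididymal (circles), subcutaneous (squares) and brown fat (diamonds), with 0 marked and dotted lines at 2-fold. Most circles and diamonds lie left of 0 and most squares right of it (13 of 18, 13 of 19 and 14 of 20), and only Arntl2 in brown fat passes the line.

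Per1 and Per2 also respond to stress signals, so genes of such responses were read beside them. Of 13 immediate early genes, which cells switch on within minutes of a stimulus, 11 were measured in brown fat, and there 3 were past 2-fold higher and 1 was past 2-fold lower in KO, against 1.11% and 2.42% of all genes. Fos had 292.4 in KO and 99.7 in WT brown fat, Egr1 1656.3 and 607.2, and Dusp1 6341.4 and 2771.9, between 2.29-fold and 2.93-fold higher in KO. Nr4a3, an orphan nuclear receptor, ran the other way, with 132.6 in KO and 1726.1 in WT brown fat, 13.0-fold lower. The list's median was 0.04 in the epididymal, 0.14 in the subcutaneous and 0.35 in the brown depot, while Per1 differed by -0.31, -0.21 and -0.23 there.

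Of 10 genes induced by glucocorticoids, 2 were past 2-fold higher in KO epididymal fat and 1 in KO subcutaneous fat, against 0.883% and 2.21% of all genes. Cdkn1a, an inhibitor of the cell cycle, was 3.24-fold higher in KO epididymal and 2.40-fold higher in KO subcutaneous fat, and the metallothionein Mt2 was 2.01-fold higher in KO epididymal fat. The list's median was -0.21 in the epididymal, 0.43 in the subcutaneous and -0.01 in the brown depot. limma called 0 of 12 immediate early and 0 of 10 glucocorticoid-induced genes for genotype, with smallest adjusted p-values of 0.59 and 0.463. The part of either response in the Per values was not tested.

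The genes most like Arntl and Dbp were picked by Pearson correlation of log2 signal over the 6 arrays, which share depots and genotypes. The 5137 genes compared were above the floor on all 6 arrays, if only just on some. Their highest array was at least 2-fold above the floor, and they spanned at least 2-fold over the arrays. Tapbpl was the gene most like Arntl, at 0.99, followed by Fam107b, Tnc and Mdm2, and Iglon5 was the least like it, at -0.96, before Gas2, Ube2q2 and Enc1. Ces1f, a carboxylesterase, was most like Dbp, at 0.97, with signals of 2386.8 in KO and 5783.2 in WT epididymal fat, 4610.6 and 8073.5 in subcutaneous fat, and 1387.9 and 2371.1 in brown fat. It was followed by Yeats2, Edc4 and Zfp87. Least like Dbp were Gper1, Hmgcs1, Sqle and Septin9, at -0.97 to -0.96, of which Hmgcs1 and Sqle encode enzymes of cholesterol synthesis. Sqle had signals of 615.2 in KO and 270.4 in WT epididymal fat, 434.7 and 218.8 in subcutaneous fat, and 1037.1 and 644.9 in brown fat, higher in KO in each depot where Dbp was lower. With 6 arrays and so many genes, high correlations of this kind are a description of these arrays only.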

How the data were processed

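The data are Affymetrix probe set intensities of biotin-labelled total RNA, deposited by the authors as 1 table on a linear scale with 1 value per probe set and array. Per the submitters' processing notes, they came from MAS5 in Affymetrix Expression Console, version not given in the sources used here. Every array's deposited intensity had the same 2%-trimmed mean, 500.0. Total RNA per cell is therefore not visible, and because MAS5 treats arrays singly, dim probe sets are noisy. Scanner files were not used here.

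Non-control probe sets numbered 45037: the platform annotation gave 1 symbol to 34945, several to 932 and none to 9160. Only the first kind was named, and 34741 of them were found in RefSeq's GRCm38.p6 gene table, where 0 symbols differed. Of the clock genes' 24 probe sets, 18 exceeded the floor on all 6 arrays and 1 on none. Log2 was taken after raising signals to the floor, and a gene was read by its brightest probe set. It counted as measured in a depot if either array exceeded the floor. Fold differences in a single depot carry no test. limma (version 3.58.1, R 4.3.3) used the 6 arrays with terms for depot and genotype and 13232 genes that exceeded the floor on 3 or more arrays. Its p-values were adjusted by Benjamini-Hochberg (threshold 0.05). Depots stand in for replicates in the genotype comparison, and the KO and WT arrays of a depot do so in the comparisons of depots. Other software was Python 3.11.15 (numpy 2.4.6, pandas 2.3.3, matplotlib 3.10.9).

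The clock genes, the other lists and the tests were chosen with earlier results of these data known. Named besides the clock genes are Kdm4b, Nr1d1, Nr1d2, Tef, list members past 2-fold in a depot, and the 4 genes with the highest and the 4 with the lowest correlation to Arntl and to Dbp. Outside that rule, Ucp1 is named as a check of the tissue. Nfil3, Nampt, Rora and the skeletal muscle genes Myh1, Myh2, Myh4 and Mb are named after their values were seen. The alternatives covered scaling (quantile, median centring), the floor (20th or 60th percentile, or no floor or filter), the probe set rule (mean of a gene's probe sets, none with the suffix _a_at, _s_at or _x_at, whose probes match several transcripts, of the same gene for _a_at, or all of them), 1.5-fold and 3-fold thresholds, an intensity trend in limma, list means, and dropping arrays, depots or arm members. Median centring used the median log2 signal of each array's probe sets above the floor. Dropping the subcutaneous arrays was added after seeing the data.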

Additional observations from a re-analysis of the deposited data

Results flagged for a closer look

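Cry1 was singled out because its depots ran in opposite directions. The KO minus WT difference in log2 signal was 1.04 in subcutaneous fat, against -0.46 in epididymal and -0.345 in brown fat, each from 1 array per genotype. The difference between subcutaneous fat and the other depots was not tested.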

How the results depend on the processing

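The members' direction over depots held best for Per3 and Dbp, which were lower in KO in all 3 depots under the deposited scale and each of the 6 other scalings, floors and probe set rules. Members lower in all 3 depots numbered 2 under median centring and, over epididymal and brown fat alone, 7 of 9 were lower in both (30.1% of all genes) and 2 higher (24.2%). Members higher in all 3 numbered 0 with the mean of all probe sets and 1 without probe sets that match several transcripts. Members 2-fold lower in KO epididymal fat numbered 0 with the mean of all probe sets, without probe sets that match several transcripts and at 3-fold, and 3 at 1.5-fold. Members 2-fold higher in KO subcutaneous fat numbered 0 without probe sets that match several transcripts, where Cry1 has none left, and at 3-fold, and in brown fat 1 was lower at 1.5-fold. Except for epididymal and brown fat alone, the shares of all genes under these other settings and thresholds were not counted. Output minus positive arm, KO minus WT, was -0.691 in epididymal and 0.002 in subcutaneous fat without probe sets that match several transcripts. The glucocorticoid list in epididymal fat had a mean of 0.137 against a median of -0.21.

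No genotype call was gained or lost among the members. For genotype limma called 19 genes higher and 14 lower with an intensity trend, against 0 otherwise, and for the interaction 8 higher and 76 lower under median centring and 9 and 25 with an intensity trend, against 0. Some small genotype estimates changed sign: Per2 was 0.027 under median centring, 0.033 with the mean of all probe sets and between -0.152 and 0.034 with 1 depot left out, Clock was -0.028 with the mean of all probe sets, and Cry1 lay between -0.404 and 0.349 with 1 depot left out. Interaction terms that changed sign were Arntl, 0.038 under quantile normalization, Per1, -0.098 under median centring, and Dbp, -0.041 under median centring and -0.009 without probe sets that match several transcripts.

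In brown against white fat, members called lower numbered 3 under quantile normalization, without filter and without floor, 2 with the floor at the 20th percentile and 1 under median centring. Over all genes, 4122 of 13232 were called lower in the main fit and 3643 of 13144 under quantile normalization. Without filter 2879 of 18193 were, without floor 3813 of 13232, with the floor at the 20th percentile 3675 of 16225 and under median centring 2811 of 13179. Members called higher numbered 1 with the floor at the 20th percentile, with the mean of all probe sets, without probe sets that match several transcripts and over all probe sets. Over all genes, 2848 of 13232 were called higher in the main fit, 2516 of 16225 with that floor and 2699 of 13313 with the mean. Without probe sets that match several transcripts 2387 of 11578 were, and over all probe sets 5221 of 27887. With any 1 array left out, 1 member was called higher and between 1 and 4 lower. Of all 13232 genes, between 1812 and 2716 were called higher and between 3047 and 3770 lower in these fits. With 1 array left out, Cry1 lay between -0.305 and 0.418 and Per2 between -0.034 and 0.173. Between the white depots 1 member, Arntl, was called higher with the floor at the 60th percentile, as were 588 of 10327 genes. Per3 there was 0.114 with the mean of all probe sets and Arntl -0.04 without probe sets that match several transcripts. With 1 array left out, Per3 lay between -0.642 and 0.036, Cry1 between -1.007 and 0.439 and Usp2 between -0.668 and 0.209. KO and WT were compared within depots, and no pairing by mouse could be fitted because the labels do not tie samples to mice.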
